A study of Homo sapiens with 62 samples.

Results

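The effect of an activated HRAS was examined in parental MCF10A cells by comparing the 2 MCF10A hRas WT libraries with the 2 MCF10A WT libraries, chosen by their group labels and making up 4 of the 62 messenger RNA libraries of the series. MCF10A is an immortalised, non-tumorigenic human breast epithelial line. The series engineered human cancer and epithelial lines to lose a recurrently gained chromosome, using a set of chromosome-removal techniques named ReDACT, and in MCF10A the arm removed was 1q. Both groups compared here have the WT genotype, so no loss was engineered in them, and the hRas WT cells additionally expressed hRASV12, HRAS with valine at residue 12. For context, 4 clones with 1q loss, each derived from a single cell, were sequenced without hRASV12 and 4 with it, in 2 libraries each; clones 1, 2 and 3 with hRASV12 were made by ReDACT-TR and clone 4 by ReDACT-CO. Cells were grown for 24 hours after plating before RNA was taken. The labels give neither the promoter and vector behind hRASV12, nor how long it had been expressed, nor whether replicates were separate cultures, so p-values measure the spread between these libraries, which may be technical.

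RAS proteins are small GTPases that relay signals from growth factor receptors when bound to GTP. Exchange factors load them with GTP, and GTPase-activating proteins return them to the inactive state. Active RAS recruits RAF kinases, which activate MEK and then ERK, and ERK drives both growth-associated transcription and its own inhibitors, among them DUSP phosphatases and Sprouty proteins. Replacing glycine at residue 12 leaves RAS insensitive to GTPase-activating proteins and so persistently active.

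The coding start of HRAS is shown because the label places the change at codon 12, which is in capitals; it is the reference sequence of the endogenous gene from GENCODE 29 (GRCh38), 5′ to 3′, the first 45 coding bases, on the minus strand of the genome. The hRASV12 sequence itself was not analysed here.
HRAS chr11:534278-534322: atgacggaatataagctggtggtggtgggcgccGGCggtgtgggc
Reads of the introduced and the endogenous HRAS were counted together and cannot be told apart, and in these bulk samples neither can a change in every cell and a change in a share of the cells.

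Library totals were 29312644 and 22184842 counts in WT and 21346758 and 21536776 in hRas WT. Replicates differed more in WT (chi-square per degree of freedom 15.67) than in hRas WT (6.382), and no pair was identical. Of 12 breast epithelial markers, 11 were tested and 2 (18.2%, against 1.62% of all genes tested) were called by edgeR's quasi-likelihood test at an adjusted p under 0.05, KRT17 and CDH1, both lower in hRas WT; 9 of the 11 had values below 0, with a median log2 fold change of -0.22. KRT5 lay between 3526 and 4547 CPM (counts scaled to library size by TMM) in the 4 libraries and TP63 between 57.3 and 73.4, whereas PGR was at 0 counts in every library. All 7 blood and endothelial markers were below the expression filter, with a summed level of 0 to 0.466 CPM, and among them CD3E and CDH5 were at 0. Of 8 fibroblast markers, LUM, COL1A2, COL3A1 and THY1 were at 0 in all 4 libraries; the list summed to 13.5 and 19.5 CPM in WT and to 26.01 and 27.33 CPM in hRas WT, with 2 members tested, DCN and COL1A1. The 1q level of the hRas WT libraries differed from the WT mean by -0.054 and -0.049 on the log2 scale (mean -0.051, median over 670 genes), 19q by -0.053 and the other arms by -0.035 to 0.038.

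HRAS (chr11:532242-537287, minus strand, GRCh38) was measured first, as a check of the labels. Its level was 86.9 and 88.6 CPM in the WT libraries and 174.5 and 179.5 CPM in the hRas WT libraries. Both hRas WT libraries lay above both WT libraries, by 2.02-fold (log2 fold change 1.01, SE 0.07, edgeR quasi-likelihood test, adjusted p = 1.63e-05), in the direction of the label. Divided by the annotated gene length, HRAS went from a mean of 47.3 to 95.5 CPM per kilobase, against 36.0 and 32.5 for NRAS. The length of the introduced transcript is not given, so the hRas WT value may not reflect its abundance. The related GTPases NRAS, RRAS, RRAS2 and MRAS were not called: NRAS was at -0.15 on the log2 scale (adjusted p = 0.445), and RRAS, RRAS2 and MRAS lay between -0.21 and 0.05.

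Of 14646 genes tested, 237 (1.62%) were called at an adjusted p under 0.05, 103 higher (0.703%) and 134 lower (0.915%) in hRas WT. The median log2 fold change was -0.0069 over all genes tested and the median absolute change of called genes was 0.656. The 2 groups were without overlap for each of the 237 and for 45% of all genes tested, so separation of the groups is not by itself a call. Changes of at least 2-fold were called for 36 genes that rose and 27 that fell. The edgeR calls needed both WT libraries: without WT replicate 1 or without WT replicate 2, which leaves 1 WT library assumed to vary like the hRas WT group, edgeR called 0 genes (2118 and 1645 at an unadjusted p under 0.05). DESeq2 then called 177 and 190, of which 59.3% and 64.7% were among the 237. The log2 fold change of HRAS was 0.99 and 1.03 in these 2 edgeR fits. Without hRas WT replicate 1, edgeR called 91 genes, and without hRas WT replicate 2, 173. Of the 48 called genes that the naming rule selected, VIM, FN1, KRT17 and FAM49A were not called by DESeq2. In a fit of all 20 MCF10A libraries, VIM, FN1, KRT17, CDH1, ESRP1, GRHL3, DUSP4, DUSP5, PHLDA1, FOSL1, ERBB3, ITGB6, ID3, MVD, GCLC, SLC7A11, BDH1, MAB21L4 and MAPK4 of these were not called, nor was DSP, which is named below outside the rule.

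**Figure D1:**
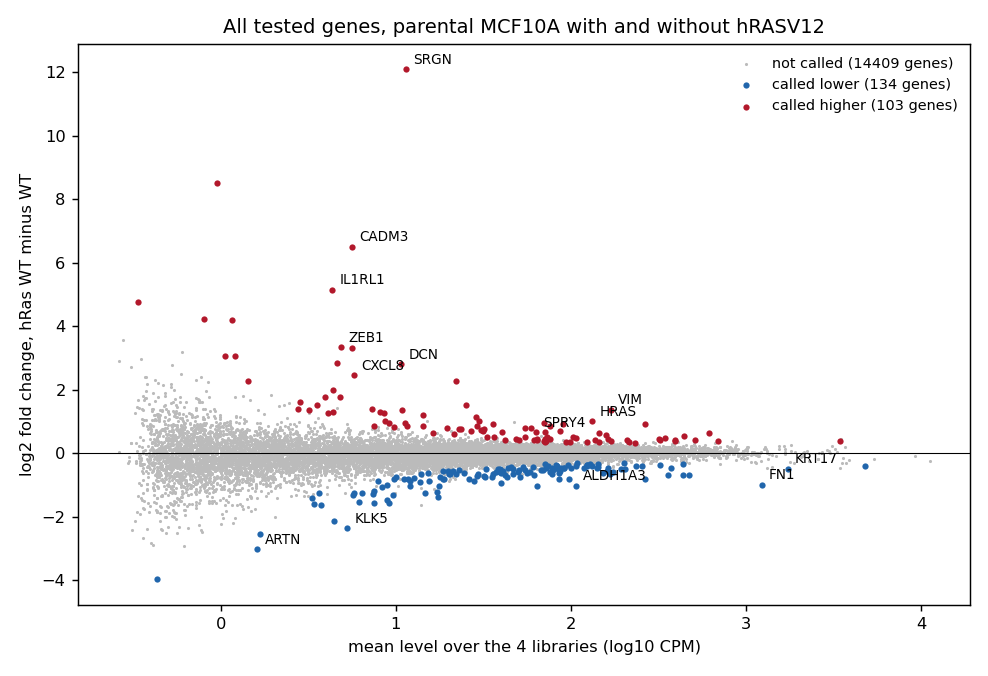
Mean level over the 4 parental libraries (log10 CPM, horizontal) against the log2 fold change of hRas WT over WT (vertical) for every gene tested, with genes called higher in red and lower in blue. Of the 237 called genes, 103 lie above 0 and 134 below; most called changes are under 2-fold, and the value plotted for SRGN depends on the prior count because both WT libraries held 0 reads of it.

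Transcripts of the proteins that load, switch off or receive the signal from RAS held no called gene, which in lists of this size is near the 1.62% of all genes tested. None of 12 tested exchange factors and GTPase-activating proteins was called (median log2 fold change -0.01). Of these, 5 were at an unadjusted p under 0.05 by edgeR, against 2083 of all 14646 genes tested. NF1, the neurofibromin GTPase-activating protein, was at 91.3 and 106.6 CPM in WT and 101.1 and 106.8 CPM in hRas WT. None of 12 tested RAF, MEK and ERK kinases and scaffolds was called (median 0.03), and 2 were at an unadjusted p under 0.05 by edgeR. The kinase BRAF had a log2 fold change of 0.06. The lowest value in that list belonged to the scaffold KSR1 (-1.01, SE 0.39, adjusted p = 0.263).

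Feedback inhibitors of ERK signalling rose in part. Of 15 members, all tested, 3 were called (20%, against 1.62% of all genes tested), all higher, 13 had a log2 fold change above 0 (48.6% of all genes tested did) and the median was 0.24. SPRY4, a Sprouty inhibitor of RAS activation, was at 49.8 and 48.0 CPM in WT and at 76.6 and 77.4 CPM in hRas WT. SPRY4 rose by 1.57-fold (log2 fold change 0.65, SE 0.09, adjusted p = 0.00171). The nuclear ERK phosphatase DUSP5 was at 30.7 and 29.9 CPM in WT against 41.7 and 44.2 CPM (log2 fold change 0.50, SE 0.10, adjusted p = 0.0242). DUSP4, another nuclear phosphatase, was at 171.6 and 188.0 against 220.5 and 258.7 CPM (log2 fold change 0.41, SE 0.09, adjusted p = 0.034). DUSP6, the cytoplasmic ERK phosphatase often read as a gauge of ERK activity, was at 65.0 and 45.6 CPM in WT and 77.0 and 82.7 CPM in hRas WT. The 2 WT libraries lay apart and the change was not called (log2 fold change 0.52, SE 0.13, adjusted p = 0.0737); DESeq2 (adjusted p = 0.0209) and the fit of all 20 MCF10A libraries (adjusted p = 0.0283) called it.

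Of 17 tested transcription factors and outputs of ERK, 1 was called (5.88%, against 1.62% of all genes tested) and the median was 0.15, with 11 values above 0, against 48.6% of all genes tested. PHLDA1, an immediate-early gene of growth factor signalling, was at 145.0 and 147.2 CPM in WT and at 186.0 and 197.4 CPM in hRas WT (log2 fold change 0.39, SE 0.07, adjusted p = 0.0177). The ETS factors ETV4 and ETV5, which ERK induces in many tissues, had log2 fold changes of 0.15 (adjusted p = 0.544) and 0.10 (adjusted p = 0.673). MYC was between 422.8 and 455.0 CPM in all 4 libraries (log2 fold change -0.05, adjusted p = 0.843), and CCND1, the G1 cyclin D1, had 0.22 (adjusted p = 0.219).

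Among 15 tested AP-1 subunits and immediate-early factors, 1 was called in each direction (13.3% together, against 1.62% of all genes tested) and the median was -0.17. FOSL1, the FRA-1 subunit that ERK stabilises and induces, was at 86.7 and 93.0 CPM in WT and at 125.7 and 123.1 CPM in hRas WT (log2 fold change 0.47, SE 0.08, adjusted p = 0.00813). FOSL2, which encodes FRA-2, went the other way, from 103.1 and 115.3 to 82.1 and 85.6 CPM (log2 fold change -0.38, SE 0.08, adjusted p = 0.0405). FOS and JUN had log2 fold changes of 0.09 and -0.17 and were not called.

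**Figure D2:**
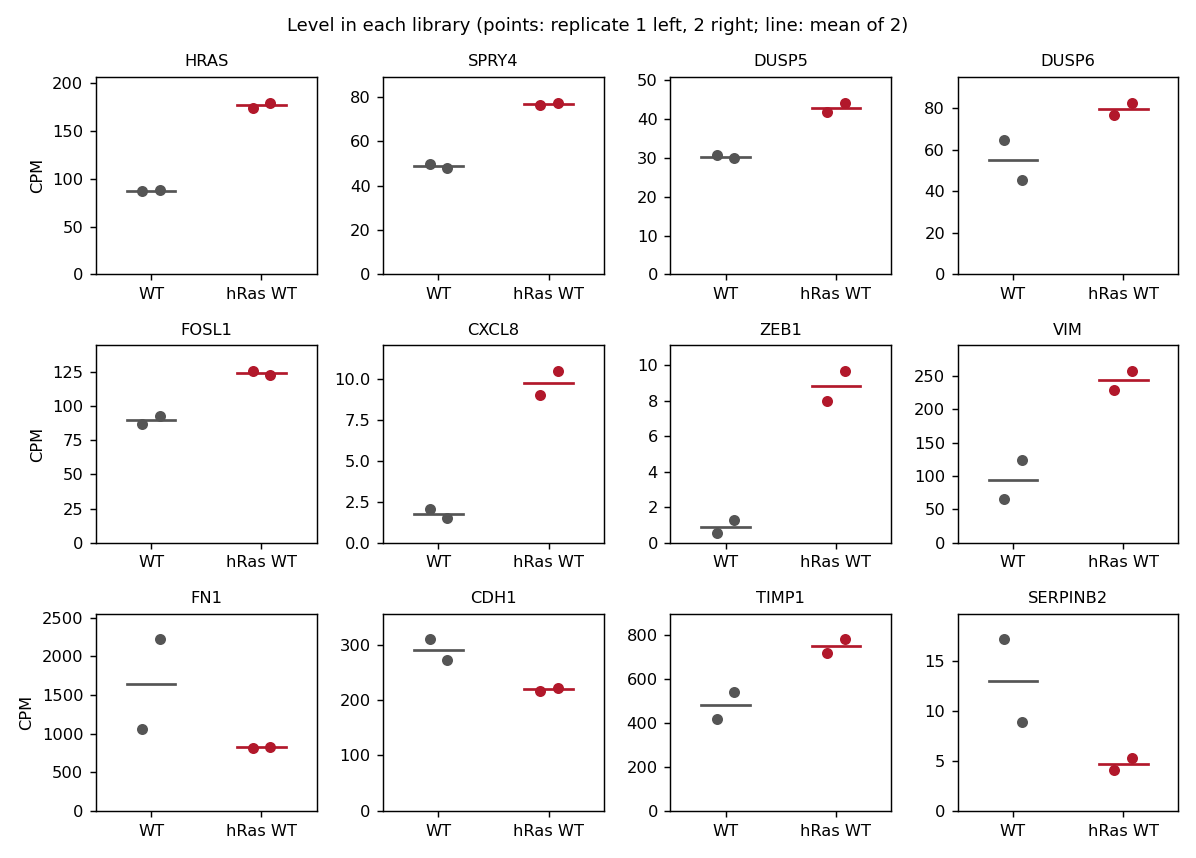
Level in CPM (vertical axis from 0) of 12 genes in each of the 2 WT (grey) and 2 hRas WT (red) libraries; lines are means of 2. HRAS, SPRY4 and DUSP5 replicates lie close together in both groups, whereas the 2 WT libraries lie apart for DUSP6, VIM, FN1 and SERPINB2.

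The EGF family, whose ligands and receptors act upstream of RAS, held 1 called member of 11 tested (9.09%, against 1.62% of all genes tested), ERBB3, the kinase-impaired receptor that signals as a partner of ERBB2. ERBB3 was at 28.0 and 21.4 CPM in WT and at 15.9 and 15.7 CPM in hRas WT, and fell by 0.65 on the log2 scale (SE 0.15, adjusted p = 0.0473). EGFR was at 423.2 and 519.0 against 398.5 and 407.8 CPM (log2 fold change -0.22, adjusted p = 0.291). The ligand EREG had the highest value of the list, 0.77 (SE 0.18, adjusted p = 0.0609), which was not called.

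The genes with the greatest increases were nearly silent in WT. SRGN, which encodes the proteoglycan core protein serglycin, had 0 counts in both WT libraries and 488 and 496 counts (22.7 and 23.3 CPM) in the hRas WT libraries. Against a floor of 3 counts per library, SRGN was at least 193-fold higher (adjusted p = 6.58e-08). CADM3, a cell adhesion molecule of the nectin-like family, had 1 and 5 counts in WT and 234 and 241 in hRas WT (log2 fold change 6.50, SE 0.41, adjusted p = 6.74e-06); it overlaps ACKR1 on the same strand, so its reads may be shared. IL1RL1, the receptor of interleukin 33, had 9 and 3 counts in WT and 158 and 202 in hRas WT (log2 fold change 5.15, SE 0.38, adjusted p = 1.63e-05). Like CADM3, it overlaps a gene on the same strand, here IL18R1, so its reads may be shared. SRGN, CADM3 and IL1RL1 had between 0 and 9 counts in each WT library.

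The remaining genes of the 10 largest protein-coding increases were ATOH8 (log2 fold change 4.18), a basic helix-loop-helix factor, ZEB1 (3.33), RTN1 (3.32), PTX3 (3.07), CNRIP1 (3.07), RIPOR2 (2.84) and DCN (2.79). PTX3 encodes the secreted pattern recognition protein pentraxin 3 and DCN encodes the matrix proteoglycan decorin. DCN was at 2.22 and 3.25 CPM in WT and at 18.4 and 19.1 CPM in hRas WT (SE 0.20, adjusted p = 1.63e-05). It is also on the fibroblast list, of which 4 members were at 0 and COL1A1 was at 10.8 and 16.1 CPM in WT and 7.45 and 7.83 CPM in hRas WT. CNRIP1 was at 4.69 without WT replicate 2 and 2.20 without WT replicate 1. CADM3 was at 8.14 and 5.58 under the same omissions, and IL1RL1 was at 5.90 and RIPOR2 at 3.48 without WT replicate 1.

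The 10 largest protein-coding decreases were in ARTN (log2 fold change -3.02), MAB21L4 (-2.54), KLK5 (-2.37), NEDD9 (-1.65), BDH1 (-1.59), GRHL3 (-1.58), MAPK4 (-1.53), SERPINB2 (-1.48), FAM49A (-1.40) and GPR89A (-1.38). ARTN, the neurotrophic ligand artemin, was at 2.70 and 3.07 CPM in WT and at 0.605 and 0.094 CPM in hRas WT (SE 0.57, adjusted p = 0.0183), and its log2 fold change was -4.86 without hRas WT replicate 1 and -2.24 without hRas WT replicate 2. MAB21L4 was at -3.33 without hRas WT replicate 1, and MAPK4, which encodes the atypical kinase ERK4, at -0.89 without WT replicate 1. GPR89A, which lies on 1q, has a near-identical copy, GPR89B, between which counting could split reads, so its value is uncertain. Of 670 tested genes on 1q, 4 were called higher and 12 lower (2.39%), against 1.58% of 13976 genes outside 1q.

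Genes of the epithelial and mesenchymal states held 6 called members of 19 (31.6%, against 1.62% of all genes tested), 3 in each direction, with a median of -0.18. ZEB1 and ZEB2 encode zinc-finger repressors of epithelial genes. ZEB1 was at 0.546 and 1.26 CPM in WT and at 7.96 and 9.66 CPM in hRas WT (log2 fold change 3.33, SE 0.34, adjusted p = 0.000281), or 4.00 without WT replicate 2. ZEB2 was at 1.91 and 2.44 CPM against 6.56 and 8.30 CPM (log2 fold change 1.78, SE 0.26, adjusted p = 0.00412). VIM, the mesenchymal intermediate filament vimentin, was at 65.3 and 123.9 CPM in WT and at 229.4 and 257.1 CPM in hRas WT, a rise of 1.37 on the log2 scale (SE 0.20, adjusted p = 0.00412).

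On the epithelial side, CDH1, which encodes E-cadherin, was at 309.4 and 271.8 CPM in WT and at 215.9 and 222.1 CPM in hRas WT. CDH1 fell by 0.41 on the log2 scale (SE 0.08, adjusted p = 0.023), that is, it stayed abundant. ESRP1, the epithelial splicing regulator, was at 165.4 and 154.7 CPM against 127.3 and 122.8 CPM (log2 fold change -0.36, SE 0.08, adjusted p = 0.0329). FN1, the matrix protein fibronectin, is commonly counted as mesenchymal and fell, from 1053 and 2218 CPM to 816.8 and 823.1 CPM (log2 fold change -0.996, SE 0.23, adjusted p = 0.0483); without WT replicate 2 its value was -0.36. The repressors SNAI1, SNAI2, TWIST1 and TWIST2 were tested and not called, with log2 fold changes from 0.02 to 0.45. The cadherin CDH2 had 0.62 (SE 0.18, adjusted p = 0.122).

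Several of these genes also differed between the 2 WT libraries, and the difference recurred in the other cells without hRASV12. In each of the 5 MCF10A groups without hRASV12, the library numbered 2 held 1.85 to 2.65 times the VIM level, 1.75 to 3.01 times the ZEB1 level and 1.36 to 2.37 times the FN1 level of the library numbered 1. The same ratio was 0.741 to 0.869 for CDH1, 0.315 to 0.706 for GRHL3 and 0.319 to 0.539 for KLK5. In the 5 groups with hRASV12 the ratio was 0.93 to 1.11 for VIM and 0.892 to 1.04 for FN1. Over all 237 called genes, WT replicate 2 lay on the hRas WT side of WT replicate 1 in 135. The same share over all genes tested was not computed. The count therefore does not show how far the replicate difference reaches into the calls. What separates the libraries numbered 1 and 2 is not given in the labels, and its part in the results was not tested.

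Keratins and basal or squamous genes lay mostly below 0: of 24 tested, 19 had a negative log2 fold change, the median was -0.31 and 2 were called (8.33%, against 1.62% of all genes tested), both lower. KLK5, a serine protease of squamous epithelium, was at 12.7 and 5.05 CPM in WT and at 1.91 and 1.55 CPM in hRas WT (log2 fold change -2.37, SE 0.38, adjusted p = 0.00762), or -1.55 without WT replicate 1. KRT17, a basal keratin, was at 2262 and 1772 CPM in WT and at 1370 and 1511 CPM in hRas WT (log2 fold change -0.49, SE 0.11, adjusted p = 0.0473). KRT5 and TP63, the keratin and the transcription factor that mark basal cells, had log2 fold changes of -0.23 (adjusted p = 0.312) and -0.29 (adjusted p = 0.123). GRHL3, a Grainyhead factor of epithelial differentiation, was at 13.7 and 8.84 CPM in WT and at 4.14 and 3.42 CPM in hRas WT (SE 0.24, adjusted p = 0.00478).

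**Figure D3:**
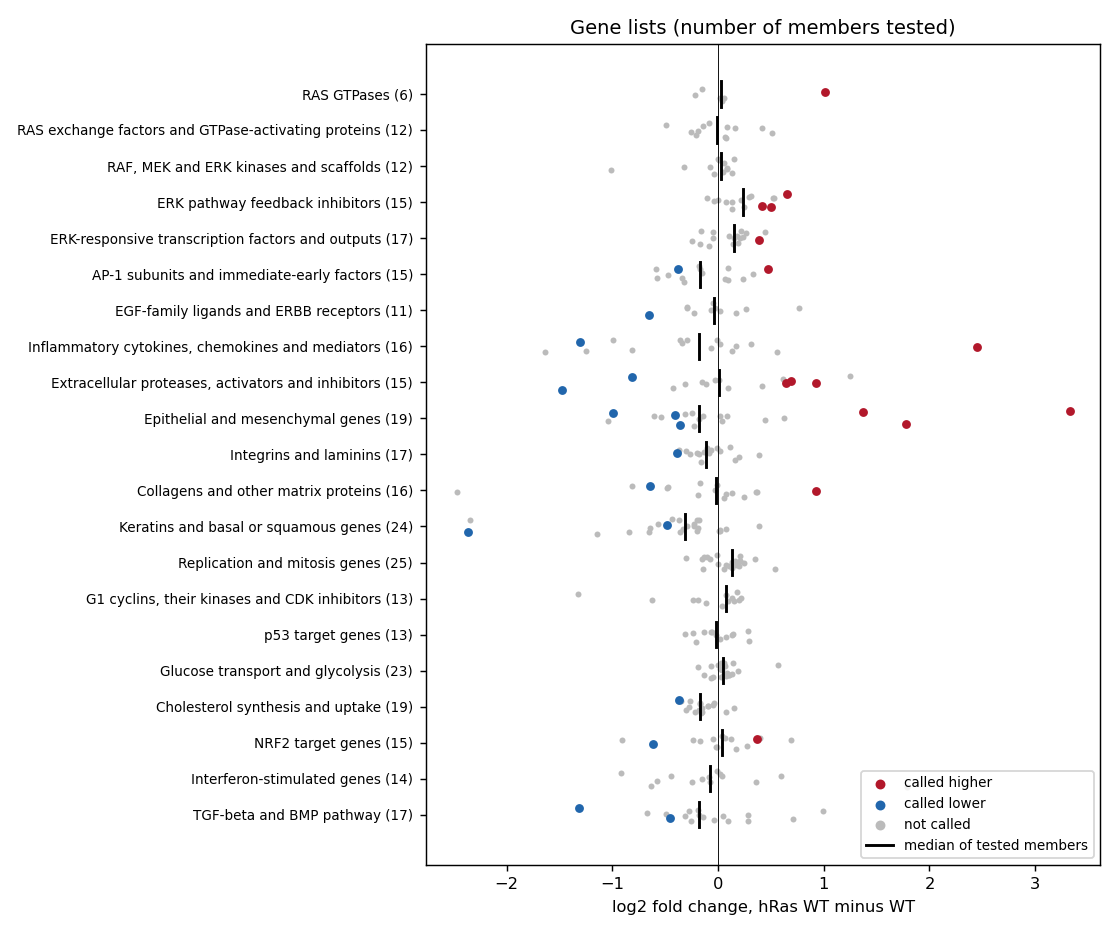
Log2 fold change of hRas WT over WT (horizontal) of each tested member of 21 gene lists, with called members in red (higher) and blue (lower) and a black bar at the list's median. The medians lie between -0.31 for keratins and basal or squamous genes and 0.24 for ERK feedback inhibitors, and the share of tested members called runs from 0 in 7 lists to 33.3% for proteases and their inhibitors, against 1.62% of all genes tested.

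The inflammatory list held 1 called gene in each direction among 16 tested of 25 (12.5% together, against 1.62% of all genes tested). CXCL8, the neutrophil chemokine interleukin 8, was at 2.05 and 1.49 CPM in WT and at 9.03 and 10.5 CPM in hRas WT. CXCL8 rose by 5.45-fold (log2 fold change 2.45, SE 0.25, adjusted p = 0.000281). PTGS2, the inducible prostaglandin synthase COX-2, fell from 14.8 and 12.8 CPM to 4.61 and 6.52 CPM (log2 fold change -1.31, SE 0.20, adjusted p = 0.00478). IL6 was under the expression filter, with at most 0.140 CPM in any library, and CXCL5, CXCL6 and CCL2 were at 0. CXCL1 and CCL20 had log2 fold changes of 0.31 and 0.56 and were not called, and the list's median was -0.18.

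Of 15 tested extracellular proteases, activators and inhibitors, 5 were called (33.3%, against 1.62% of all genes tested), 3 higher and 2 lower, and these 5 encode inhibitors. SERPINE2, which encodes protease nexin-1, was at 61.0 and 63.9 CPM in WT and at 115.1 and 122.1 CPM in hRas WT (log2 fold change 0.93, SE 0.08, adjusted p = 6.68e-05). TIMP1 was at 419.8 and 541.1 against 719.8 and 780.2 CPM (log2 fold change 0.64, SE 0.11, adjusted p = 0.00898), and TIMP2 rose by 0.69 on the log2 scale (SE 0.12, adjusted p = 0.00981). TIMP3, the matrix-bound inhibitor of metalloproteinases, went the other way, from 107.0 and 110.9 to 57.3 and 66.5 CPM (log2 fold change -0.81, SE 0.09, adjusted p = 0.000532). SERPINB2, plasminogen activator inhibitor 2, fell from 17.18 and 8.88 to 4.10 and 5.34 CPM (SE 0.28, adjusted p = 0.018). Of the proteases, MMP9 had 1.25 (SE 0.30, adjusted p = 0.0628), MMP14 and PLAU had -0.11 and -0.03, and MMP1 did not pass the filter.

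The matrix, adhesion and TGF-beta lists had 12.5%, 5.88% and 11.8% of their tested members called, against 1.62% of all genes tested. LOXL2, which cross-links collagen, rose from 22.6 and 26.8 to 46.7 and 46.9 CPM (log2 fold change 0.93, SE 0.11, adjusted p = 0.00102), and COL7A1, the anchoring fibril collagen, fell from 81.6 and 108.4 to 61.0 and 60.4 CPM (log2 fold change -0.64, SE 0.11, adjusted p = 0.0132); the other 14 of 16 tested matrix genes were not called. Of 17 integrins and laminins, ITGB6 was called (log2 fold change -0.39, SE 0.08, adjusted p = 0.0279). Of 17 TGF-beta and BMP pathway genes, ID2 and ID3 were called, both inhibitors of helix-loop-helix factors that BMP signalling induces. ID2 was at 7.85 and 8.43 CPM in WT and at 3.91 and 2.63 CPM in hRas WT (log2 fold change -1.31, SE 0.24, adjusted p = 0.0151), and ID3 fell by 0.45 on the same scale (SE 0.09, adjusted p = 0.0239).

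The lists of proliferation, cell cycle control, p53 response, glycolysis and interferon response held no called gene, which for 13 to 25 tested genes a list is near the 1.62% of all genes tested. None of 25 replication and mitosis genes was called by edgeR (median log2 fold change 0.13, 18 of 25 above 0, against 48.6% of all genes tested). At an unadjusted p under 0.05 by edgeR there were 10 of these 25, against 2083 of all 14646 genes tested. None of 13 tested G1 cyclins, their kinases and CDK inhibitors was called. CDKN2A and CDKN2B, the CDK inhibitor genes associated with RAS-induced arrest, were at 0 counts in all 4 libraries, which at 3 counts allows up to about 0.14 CPM per hRas WT library. Counts of 0 in both groups do not tell a silent gene from one missing in this line. They therefore do not show whether hRASV12 can act on these 2 genes. CDKN1A, which encodes p21, was at 197.7 and 156.8 CPM in WT and at 187.5 in both hRas WT libraries (log2 fold change 0.08, adjusted p = 0.78). MDM2, a p53 target, had -0.07 (adjusted p = 0.826), and none of 13 p53 targets was called (3 at an unadjusted p under 0.05). None of 23 glycolysis genes was called (0 at an unadjusted p under 0.05; median 0.05), nor any of 14 tested interferon-stimulated genes (3 at an unadjusted p under 0.05).

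In the 2 remaining metabolic lists, 17 of 19 cholesterol genes had values below 0 (median -0.17), whereas 48.6% of all genes tested were above 0. Of these 19, 1 was called (5.26%, against 1.62% of all genes tested). It was MVD, mevalonate diphosphate decarboxylase (log2 fold change -0.37, SE 0.07, adjusted p = 0.0235). Of 15 NRF2 targets, 2 were called (13.3%, against 1.62% of all genes tested), 1 in each direction. GCLC, a subunit of the enzyme limiting glutathione synthesis, rose (log2 fold change 0.37, SE 0.08, adjusted p = 0.0405). SLC7A11, the cystine importer, fell (log2 fold change -0.62, SE 0.12, adjusted p = 0.0191). Across the 21 lists, 31 of 332 distinct tested genes were called (9.34%, against 1.62% of all genes tested), 15 higher and 16 lower; the lists were drawn up around RAS biology and are not a sample of all genes.

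Promoters of 3 called genes are shown with matches to 1 of 2 motifs, both searched on both strands: the E-box CAGGTG, bound by ZEB1 and ZEB2, which rose, and the AP-1 motif TGANTCA, bound by dimers of FOS and JUN family proteins, of which FOSL1 rose and FOSL2 fell. The sequences are from RefSeq (GRCh38.p14), plus strand, 5′ to 3′, each ending before both the RefSeq start and the gene start in the deposited tables, which differ, with matches in capitals. DSP, the desmosomal gene desmoplakin, fell; ZEB1 and CXCL8 rose. The 3 were chosen after their values were seen.
DSP chr6:7541425-7541574: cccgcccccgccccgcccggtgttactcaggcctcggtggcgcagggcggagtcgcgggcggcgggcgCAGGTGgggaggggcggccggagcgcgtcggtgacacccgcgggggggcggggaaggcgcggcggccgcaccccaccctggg
ZEB1 chr10:31318267-31318416: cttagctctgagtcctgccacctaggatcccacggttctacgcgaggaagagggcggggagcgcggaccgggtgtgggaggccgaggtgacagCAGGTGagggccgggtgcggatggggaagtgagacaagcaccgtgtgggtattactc
CXCL8 chr4:73740356-73740505: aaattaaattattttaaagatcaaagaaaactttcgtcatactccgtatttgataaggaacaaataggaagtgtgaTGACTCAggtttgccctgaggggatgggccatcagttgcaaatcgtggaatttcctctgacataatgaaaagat
The E-box lies 178 bases before the RefSeq start of DSP and 57 bases before that of ZEB1, and the AP-1 motif lies 137 bases before that of CXCL8. In windows from 250 bases before to 50 bases after the RefSeq start, matched by symbol, CAGGTG occurred in 33 of 96 genes called lower (34.4%), 13 of 71 called higher (18.3%) and 24.1% of 10261 tested genes. TGANTCA occurred in 10 of 96 called lower (10.4%), 9 of 71 called higher (12.7%) and 7.3% of tested genes. These shares are descriptions without a test, and a match is not evidence of binding.

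The same contrast was made in the 1q-loss clones, which share no library with the parental comparison. HRAS was higher with hRASV12 in all 4 clones, by 0.76, 2.23, 0.87 and 1.46 on the log2 scale in clones 1, 2, 3 and 4. With the 2 libraries of each clone summed, edgeR called 0 of 16122 genes (1063 at an unadjusted p under 0.05); with the clone number as a block it called 5, all higher, namely CADM3, POSTN, ACKR1, SRGN and IL1RL1, and DESeq2 called 53. CADM3 (log2 fold change 6.58), ACKR1 (6.08), SRGN (8.48) and IL1RL1 (6.50) in the blocked fit were also called in parental cells, and POSTN was not tested there.

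Of the 237 parental calls, 236 were tested in the clones and 206 (87.3%) had the same direction there, against 57.4% of all 14568 genes tested in both. The Pearson correlation of the 2 log2 fold changes was 0.878 over these 236 genes and 0.426 over all 14568, as a description across genes, which are not independent replicates. Among parental increases, 69 of 103 (67.0%) were higher in each of the 4 clones, against 17.1% of all genes above 0 in parental cells, and the median clone change was 1.02. Among parental decreases, 59 of 133 (44.4%) were lower in each of the 4, against 18.2% of all genes below 0, with a median of -0.42. A test of the difference between the effect in clones and in parental cells called 0 of 17682 genes by edgeR (462 at an unadjusted p under 0.05) and 0 by DESeq2; with the clone number as a block, edgeR also called 0 (1105 at an unadjusted p under 0.05).

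**Figure D4:**
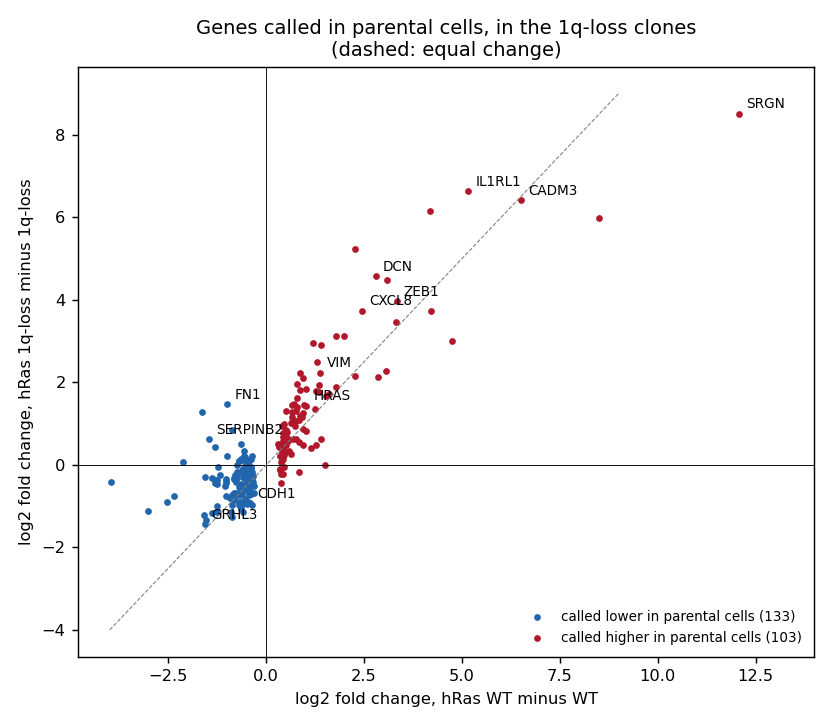
Log2 fold change with hRASV12 in parental cells (horizontal) against that in the 1q-loss clones (vertical) for the 236 genes called in parental cells and tested in both; the dashed line marks equal change. Genes called higher in parental cells lie mostly above 0 in the clones as well, while FN1 and SERPINB2, called lower, lie above 0 in this fit, although SERPINB2 was below 0 in 3 of the 4 clones.

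Individual genes varied widely between clones. SPRY4 was higher in each clone, by 0.35, 1.90, 0.58 and 1.69 on the log2 scale in clones 1 to 4, with the larger values in clones 2 and 4, where the HRAS difference was also larger. DUSP6 (0.34, 0.27, 0.12 and 0.24) had its largest value in clone 1, where the HRAS difference was smallest. Whether the changes of these genes follow the HRAS difference was not tested. DUSP4 (0.61, 0.96, 0.39 and 0.66), DUSP5 (0.72, 1.19, 0.52 and 0.89) and CXCL8 (1.95, 5.56, 3.52 and 3.65) were likewise above 0 in every clone. VIM had -0.44 in clone 1 and 3.27, 1.69 and 1.98 in clones 2, 3 and 4. CDH1 had 0.09, -6.88, -0.54 and -1.14, so that the parental change of -0.41 lay within the range of the clones. FN1, lower in parental cells, had -1.23 in clone 1 and 2.15, 0.42 and 1.75 in the other clones. SERPINB2, also lower in parental cells, had 1.46 in clone 1 and -2.65, -1.70 and -0.08 in clones 2, 3 and 4 (fitted change 0.63, SE 1.30). GCLC, higher in parental cells, was below 0 in every clone (-0.23, -0.20, -0.14 and -0.32). COL7A1, ID3, NEDD9, PTGS2 and SLC7A11, lower in parental cells, had fitted clone changes of 0.51, 0.07, 1.28, 0.44 and 0.15. Taken clone by clone, PTGS2 and SLC7A11 were below 0 in 3 of the 4 clones, NEDD9 in 2, and COL7A1 and ID3 in 1 each. FOSL1, higher in parental cells, had 0.59, 0.40, 0.00 and 0.19, with the largest value in clone 1.

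**Figure D5:**
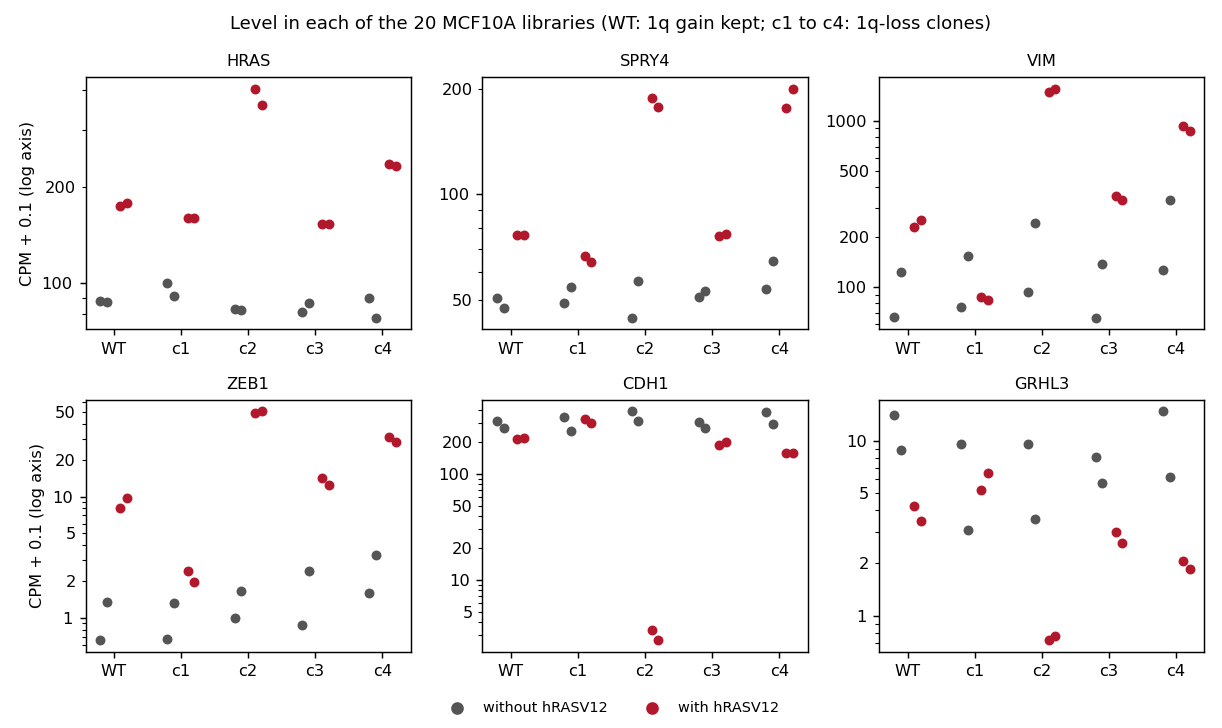
Level of 6 genes in each of the 20 MCF10A libraries (CPM plus 0.1, log axis), parental cells (WT) and 1q-loss clones (c1 to c4), without hRASV12 in grey and with it in red; in each pair of points replicate 1 is on the left. HRAS is higher with hRASV12 in every background, CDH1 is lowest in clone 2 with hRASV12, and the grey pairs of VIM and ZEB1 lie apart by a similar ratio in every background.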

How the data were processed

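The deposited tables hold raw read counts per gene, 1 table per library, with gene coordinates in GRCh38. The submitters' processing notes name HISAT2 2.0.5, featureCounts 1.5.0-p3 and hg38; whether counting used strand is not given in the sources used here, so reads of overlapping or antisense genes (ZEB1 with ZEB1-AS1) cannot be told apart. In edgeR 4.0.16, filterByExpr (minimum count 10, minimum total 15) chose the genes, TMM set the scaling and the quasi-likelihood test compared the 4 parental libraries, unpaired, two-sided, with Benjamini-Hochberg adjustment over all genes tested (limma 3.58.1, R 4.3.3, DESeq2 1.42.0, Python 3.11.15). SE is the size of the log2 fold change over the root of the F statistic. Floors cover counting error only. The fits were also run on simulated counts, with an outcome that is not given here.

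Named genes were HRAS, 9 other set genes (DUSP6, SPRY4, ETV4, ETV5, FOSL1, EGFR, MYC, CDKN1A, MDM2), the 10 largest called protein-coding changes each way at a mean CPM of at least 1, and up to 4 called members each way per list; the libraries, lists and members were chosen with earlier results of these data known. Same-numbered parental replicates did not deviate together (r = -0.011), so no block was used. Same-numbered 1q-loss clones with and without hRASV12 did (r = 0.434, 0.268, 0.432 and 0.594, each the highest for its clone). Alternatives were DESeq2, RLE scaling, 2 other filters, a replicate block, omission of each library or clone, a fit of all 20 MCF10A libraries and, chosen after seeing the data, thinning to the smallest total count, DESeq2 with each library omitted and a clone block in the test of the difference. The 42 libraries of other lines were not used here. Some genes are not reported here.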

Additional observations from a re-analysis of the deposited data

Results flagged for a closer look

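ESRP1, the epithelial splicing regulator, differed with hRASV12 by -6.59 on the log2 scale in clone 2, against -0.25, -0.42 and -1.03 in clones 1, 3 and 4. The gap between clone 2 and the nearest clone is large for the range of 4 values; 21 genes were examined this way, and chance alone marks about 1 in 20.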

How the results depend on the processing

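The parental comparison gave 237 called genes, 633 with no filter on low counts, 711 with a replicate block (numbers that do not pair these samples), and between 0 and 190 with 1 library left out (0 to 173 by edgeR; 177 and 190 by DESeq2 without a WT library, 51 and 36 without an hRas WT library); the cause was not tested. DESeq2 (268), RLE scaling (249), a CPM minimum (238), all 20 libraries (204) and thinning (300) stayed within 1.5 times. Of 48 called genes named by the rule, 44 were called by DESeq2 and 29 with all 20 libraries; without either WT library edgeR called none (smallest adjusted p 0.134 and 0.122), and DESeq2 called 25 and 32. All 48 kept their direction with each library left out. Of the uncalled genes, with 1 library left out, CDKN1A ranged from -0.08 (DESeq2 -0.07) to 0.25, MDM2 from -0.20 to 0.08 (DESeq2 0.09 and 0.03; edgeR without hRas WT replicate 1 0.03) and MYC from -0.09 to 0.00. The clone comparison gave 0 called genes, 172 with libraries not summed, 53 by DESeq2, 5 with the clone block and 0 to 4 with a clone left out. The test of the difference gave 0 in all settings run. The 1q difference ranged from -0.057 to -0.047 over its alternatives.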

Other observations

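Other gene families, listed after their values were seen, moved as follows in parental cells; of all genes tested, 0.703% were called higher and 0.915% lower, and 48.6% had values above 0. Of 9 tested desmosome genes, which anchor keratin filaments between epithelial cells, 5 were called (55.6%), all lower: JUP (log2 fold change -0.68, adjusted p = 0.00124), DSC2 (-0.66), DSG3 (-0.61), DSC3 (-0.47) and DSP (-0.35), with a family median of -0.34. JUP, plakoglobin, was at 576.6 and 500.6 CPM in WT and at 333.5 and 338.1 CPM in hRas WT. Of 10 epithelial transcription factors, 4 were called (40.0%), all lower, and all 10 had values below 0; besides GRHL3 they included OVOL1 (-1.25) and TFCP2L1 (-0.32).

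Of 18 HSP90 chaperones and co-chaperones, 6 were called higher and 1 lower (38.9% together), and 16 had values above 0. DNAJA1 (0.46), CHORDC1 (0.43), FKBP4 (0.41), HSPH1 (0.40), STIP1 (0.40) and HSP90AA1 (0.39) rose, while HSPB1, a small heat shock protein, fell (-0.46). HSP90AA1 was at 3012 and 2954 CPM in WT and at 3760 and 4036 CPM in hRas WT. Of 5 tested metallothioneins, 3 were called (60.0%): MT1E (0.92), MT1L (0.76) and MT1X (0.85) rose; their near-identical sequences make the assignment of reads among them uncertain. All values in this section are edgeR log2 fold changes, and as with the other calls none was called by edgeR without either WT library. DESeq2 did not call DSG3 and MT1E, and the fit of all 20 libraries did not call DSG3, DSC3, DSP, GRHL3, OVOL1, TFCP2L1, CHORDC1 and HSPB1.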
